A study of Mus musculus with 18 samples.

Results

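Across 18 RNA-seq libraries of one brown adipocyte cell line, the libraries whose titles end in 3 or 6 were compared with those whose titles end in 1 or 4. The comparison takes 12 of the 18 libraries: 6 with the numbers 3 and 6 (set 3 and 6 below) and 6 with the numbers 1 and 4 (set 1 and 4). Each set holds 2 libraries at each of the 3 labelled times, 0 h, 4 h and 24 h, so labelled time is balanced between the sets and was kept as a covariate. No labelled time is assigned to a set, and the labels do not say what the numbers stand for beyond telling replicates of a time apart.

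The cells were BMC cells, an immortalised line of mouse brown preadipocytes, labelled as differentiated brown adipocytes. All groups shared the same culture: at confluence (day 0) the medium received isobutylmethylxanthine at 0.5 mM, indomethacin at 0.125 mM, dexamethasone at 1 µM, triiodothyronine at 1 nM and insulin at 20 nM, only the last 2 stayed from day 2, and sampling was on day 7. The 0 h group was labelled as not induced, and the 4 h and 24 h groups were taken after addition of 1 µM norepinephrine, with 6 libraries in each group and the same batch label, 1, on all of them. The cells are 1 immortalised line, with no other genotype in the study, and whether replicates are separate cultures is not in the labels. A p-value therefore reflects the variation among the libraries at hand, and that variation could be technical.

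Norepinephrine acts on adrenergic receptors of brown adipocytes. Beta receptors couple to adenylyl cyclase, and the cyclic AMP they raise activates protein kinase A, which phosphorylates the transcription factor CREB and the proteins that release fatty acids from lipid droplets. Immediate early genes such as Fos, Egr1 and Nr4a1 are transcribed within minutes of many stimuli, this one among them. The released fatty acids feed mitochondrial oxidation and activate Ucp1, the uncoupling protein that turns the proton gradient into heat.

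The sets were chosen by measured values of these data. After the mean of each labelled time was subtracted from each gene's log2 level, the deviations of libraries with the same number correlated across genes with r between 0.30 and 0.72 (18 pairs of libraries of different labelled times). Libraries whose numbers lie 3 apart gave 0.24 to 0.69 (18 pairs), and all other combinations of numbers gave -0.45 to 0.02 (72 pairs). Every gene of these 12 libraries entered those values, so the differences between the sets are given below as a description, with no test. A gene is called apart where its level differed by at least 2-fold (an absolute log2 fold change of at least 1) and no library of one set overlapped any of the other. Levels are counts per 1000000 (CPM) after trimmed-mean (TMM) scaling, log2 fold changes are set 3 and 6 minus set 1 and 4 from edgeR ± their standard error (SE), and 3 values for a set are its lowest, median and highest of 6 libraries.

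Total estimated counts were 19911426 ± 5506396 (SD, n = 6) in set 3 and 6 and 20151062 ± 5025129 (SD, n = 6) in set 1 and 4, a difference smaller than the spread within either set (exact two-sided permutation test, p = 0.922). A library of each set was shallow: 4 h replicate 6 held 8924701 counts, 18151 detected genes and 8.48% of its counts in mitochondrially encoded proteins, each the lowest value of set 3 and 6, and 24 h replicate 4 held 11258673 counts and 18383 detected genes, the lowest of set 1 and 4, with that set's highest share of mitochondrial ribosomal RNA (9.51%). Genes that catch ribosomal RNA reads (Yam1 and Gm26917) took 6.93% to 7.65% of counts in set 3 and 6 and 6.90% to 10.6% in set 1 and 4, with overlap. The list of RNA quality and composition genes, which holds ribosomal RNAs and nuclear noncoding RNAs among others, had all 9 members at a log2 fold change below 0. This list had 2 members lower without overlap, near the 20.1% of all genes tested. Its sum was 122436 to 142630 CPM in set 3 and 6 and 148166 to 229730 CPM in set 1 and 4, and Malat1, a nuclear noncoding RNA, was at 29617, 30699 and 32795 CPM in set 1 and 4 and 16904, 19199 and 20419 CPM in set 3 and 6 (-0.73 ± 0.05). These values differ together with the sets, and their part in the gene differences below was not tested. Adipocyte markers were abundant in both sets, for example Adipoq, the hormone adiponectin, at 443, 465 and 509 CPM in set 1 and 4 and 720.0, 829.7 and 928 CPM in set 3 and 6. Over the whole list of 10 adipocyte markers, 5 were lower and 2 higher in set 3 and 6 without overlap. Among all genes tested 20.1% were lower and 19.0% higher without overlap. The summed level of the 10 markers was 7743 to 9200 CPM in set 3 and 6 and 10607 to 11201 CPM in set 1 and 4. Of 10 brown adipocyte markers 9 passed the filter on low counts, and 2 of 13 macrophage and leukocyte markers, 1 of 8 endothelial and 2 of 11 skeletal muscle markers did.

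Of 14537 genes with enough counts, 877 were apart (6.03%), with 445 higher in set 3 and 6 (3.06%) and 432 lower (2.97%). Counts of list members apart below are to be read beside these shares, and a single gene apart is no result about its list. The 6 libraries of one set lay wholly above or below those of the other for 5676 genes at any fold (39.0%), of which 2757 were higher (19.0%) and 2919 lower (20.1%) in set 3 and 6. The set accounted for a median 50.7% of a gene's variance over the 12 libraries and the labelled time for 6.30%. Because the sets were chosen by these same values, the share of the set restates that choice in part. At 4-fold or more without overlap, 117 genes were lower in set 3 and 6 and 49 were higher. Without 4 h replicate 6, 903 genes were apart (450 higher, 453 lower), and without 24 h replicate 4, 939 were (475 higher, 464 lower). Scaling by library totals alone, chosen after seeing the data, moved the median log2 fold change of all genes by 0.16 and the split to 670 higher and 335 lower (66.7% higher against 50.7%), so log2 differences near that size depend on the scaling. With it the medians of the lists of mitochondrially encoded proteins, adipogenic factors, insulin signalling, inflammation, proliferation, autophagy, phosphodiesterases, brown adipocyte markers and neural markers turned from below 0 to above 0. The next genes past the fold were close to it on both sides: Arhgef2 (-1.003) was just inside and Pgm2 (-0.998) just outside among lower genes, and Lxn (1.009) just inside and Man2a1 (0.999) just outside among higher genes.

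**Figure D1:**
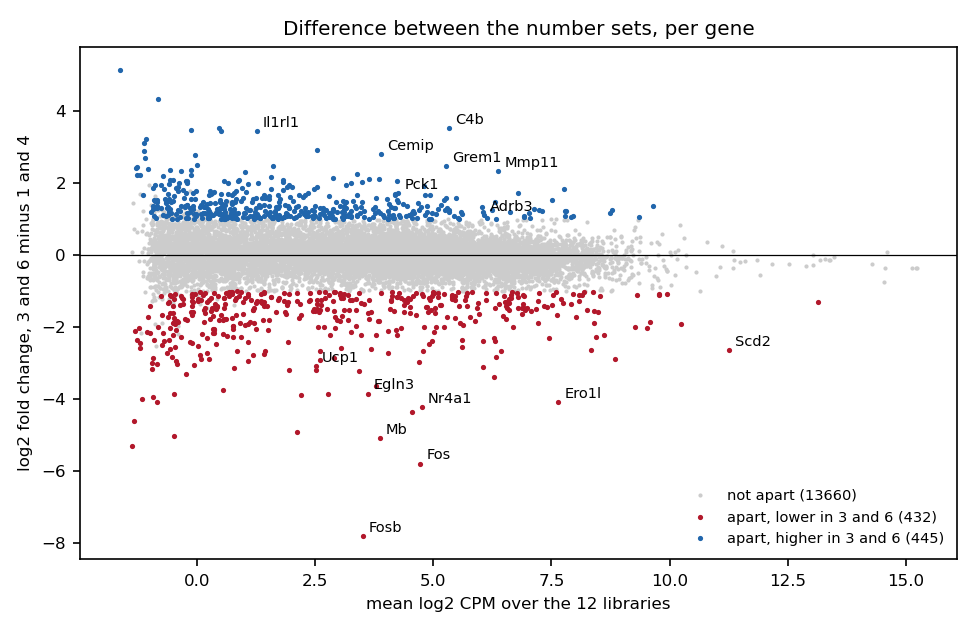
Each point is 1 of 14537 genes: the x axis is its mean log2 CPM over the 12 libraries, the y axis its log2 fold change, set 3 and 6 minus set 1 and 4. Coloured points are the 877 genes apart (blue 445 higher, red 432 lower in set 3 and 6), and the lowest named point is Fosb at -7.79.

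Immediate early genes had the lowest median of the 31 gene lists. Of 38 tested, 26 were apart and lower in set 3 and 6, 1 was apart and higher, and the median log2 fold change was -1.70, beside 2.97% lower, 3.06% higher and a median of 0.00 over all genes tested. Fosb, a partner of JUN in the AP-1 transcription factor (mm10 chr7:19302696-19310051), was at 103, 162 and 202 CPM in set 1 and 4 and 0.513, 0.694 and 1.13 CPM in set 3 and 6. Every library of set 1 and 4 was far above every library of set 3 and 6, with a log2 fold change of -7.79 ± 0.14. Its AP-1 relative Fos (chr12:85473890-85477273) was at 126, 201 and 239 CPM against 3.03, 3.38 and 4.92 CPM, again with no overlap, and a log2 fold change of -5.78 ± 0.14. Nr4a1 (chr15:101254269-101274795), an orphan nuclear receptor induced by cyclic AMP, was at 86.3, 117 and 149.5 CPM in set 1 and 4 and 5.64, 6.16 and 7.30 CPM in set 3 and 6, a difference of -4.21 ± 0.14. Both zinc finger factors named were lower in the same way: Egr2 was at 88.04, 106 and 117 CPM against 4.57, 4.99 and 6.66 CPM (-4.34 ± 0.07), and Egr1 was at 1090.1, 1278 and 1444 CPM against 152, 171 and 191 CPM (-2.87 ± 0.05). Ier2, a nuclear immediate early protein, had a log2 fold change of -3.38 ± 0.10, Atf3, a stress-induced repressor of the CREB family, -2.70 ± 0.07, and Arc, better known from neurons, -2.14 ± 0.07. Zfp36, which destabilises AU-rich mRNAs, stood at 99.6, 118 and 141 CPM against 17.5, 19.9 and 23.5 CPM and Dusp1, a phosphatase that inactivates MAP kinases, at 199, 216 and 227 CPM against 27.5, 29.4 and 33.6 CPM, both without overlap. Within set 1 and 4, the lowest Fos value was that of 0 h replicate 1.

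The libraries with the numbers 2 and 5, which belong to neither set, had Fos at 4.57 to 8.004 CPM, Fosb at 0.989 to 3.74 CPM and Nr4a1 at 9.38 to 12.8 CPM, set beside the others as levels only. One of those 6 libraries, 24 h replicate 5, had 41.5% of its counts in those ribosomal RNA-like genes. For these 3 genes the high levels thus stood in the numbers 1 and 4, whatever the labelled time.

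**Figure D2:**
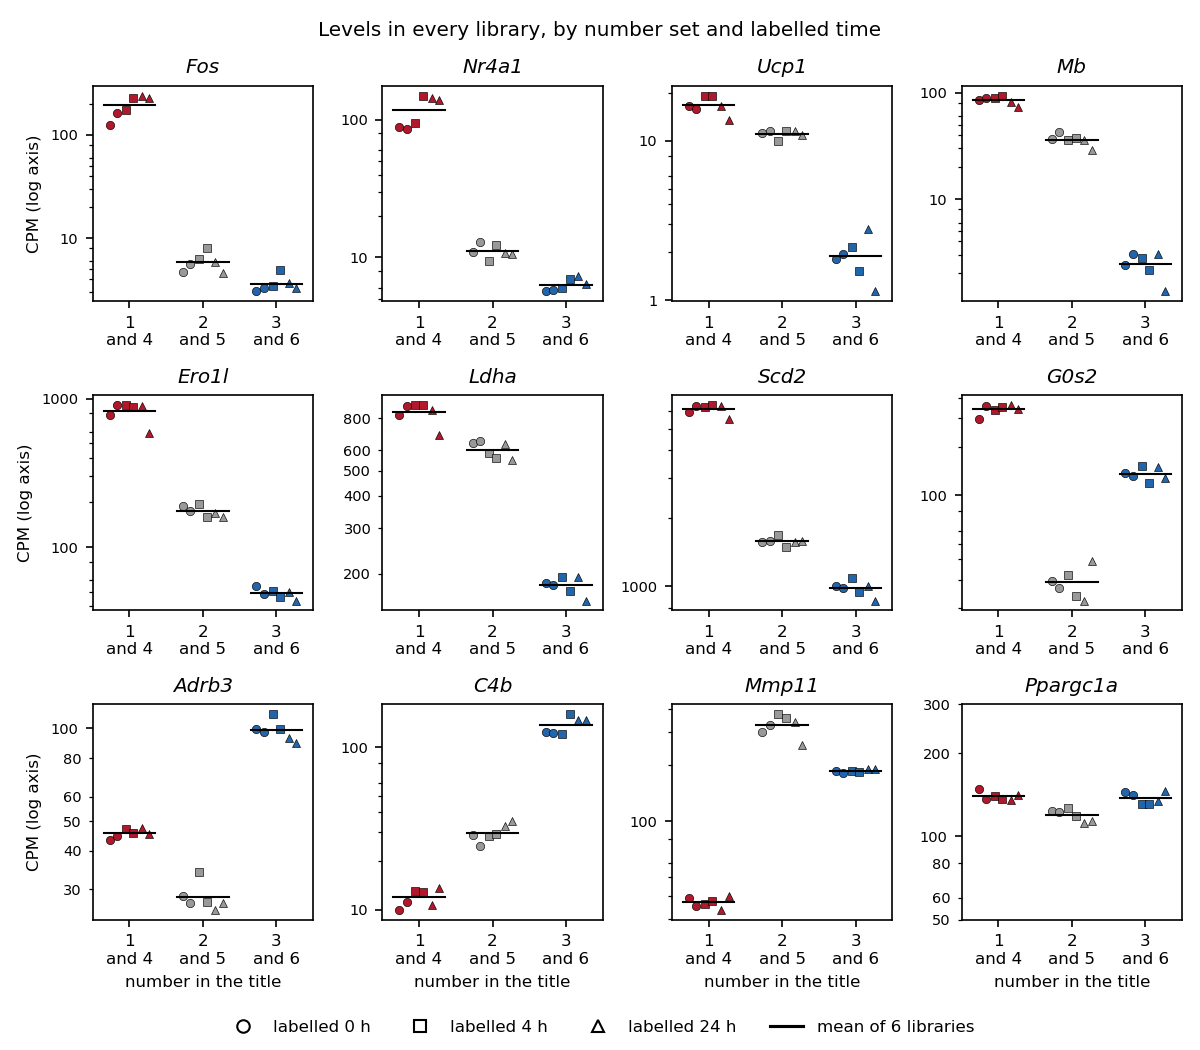
CPM (log axes) of 12 named genes in all 18 libraries, by the number in the title (x axis) and labelled time (circle 0 h, square 4 h, triangle 24 h), with a line at the mean of 6 libraries. Fos and Nr4a1 are high in all 6 libraries of the numbers 1 and 4, Adrb3 and C4b in all 6 of the numbers 3 and 6, and Ppargc1a overlaps between those sets.

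Promoter sequences were read for the immediate early genes that were apart and lower, since cyclic AMP acts on many of them through the cAMP response element, which is bound by CREB. RefSeq promoters (GRCm38.p6, 250 bases before to 50 after the start) matched 20 of these 26 genes by name or gene identifier. This is under the 80% needed to compare a share with other genes, so that comparison is void. The palindrome TGACGTCA, which reads the same on both strands, stood in 4 of the 20. It stood in 2.03% of all 27025 genes with a promoter and in 3.64% of the 10206 genes tested that matched. The 250 bases before the start are shown for 2 of the 4, with the palindrome in capitals, for Dusp1 at chr17:26508473-26508722 (minus strand) and Btg2, an antiproliferative gene, at chr1:134079156-134079405 (minus strand). Btg2 was picked after its values were seen and had a log2 fold change of -3.09 ± 0.15.
Dusp1: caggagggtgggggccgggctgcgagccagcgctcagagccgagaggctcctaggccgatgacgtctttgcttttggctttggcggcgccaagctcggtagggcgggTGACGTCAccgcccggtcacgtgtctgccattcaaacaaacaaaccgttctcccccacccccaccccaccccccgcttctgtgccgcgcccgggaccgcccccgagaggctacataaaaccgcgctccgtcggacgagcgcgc
Btg2: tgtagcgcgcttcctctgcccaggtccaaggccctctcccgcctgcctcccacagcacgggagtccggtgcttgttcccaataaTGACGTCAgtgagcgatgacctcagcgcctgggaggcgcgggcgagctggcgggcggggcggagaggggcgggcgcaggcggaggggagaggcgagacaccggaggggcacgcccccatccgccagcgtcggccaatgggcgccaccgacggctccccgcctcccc

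The list of cyclic AMP and CREB targets was split: 11 of 28 were apart and lower, 2 were apart and higher, and the median log2 fold change was -0.42. Its members Atf3, Fosb, Nr4a1, Nr4a2 and Nr4a3 are also in the list of immediate early genes. They enter the counts of both lists, so the 2 lists are not separate results. Dio2, the deiodinase that makes active thyroid hormone, was at 2.07, 2.64 and 2.91 CPM against 0.205, 0.567 and 0.816 CPM, lower in every library of set 3 and 6. The clock repressor Per1, which has a log2 fold change of -1.13 ± 0.04, and Pde3b, a phosphodiesterase that degrades cyclic AMP, at -1.08 ± 0.04, were lower too. Ppargc1a, the coactivator that drives mitochondrial biogenesis, showed no such separation: it was at 136, 138 and 148 CPM against 131, 138 and 146 CPM, with a log2 fold change of -0.02 ± 0.04. Pck1, which makes phosphoenolpyruvate and feeds glycerol synthesis in fat cells, went the other way, at 10.1, 10.4 and 11.3 CPM in set 1 and 4 and 31.2, 35.8 and 36.7 CPM in set 3 and 6 (1.73 ± 0.06).

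Among the receptors, Adrb3 was higher in set 3 and 6. Adrb3 (chr8:27225776-27250616), the receptor typical of rodent fat cells, was at 43.2, 45.6 and 47.6 CPM in set 1 and 4 and 89.6, 98.5 and 111 CPM in set 3 and 6, about 2.16-fold higher in set 3 and 6 with no overlap (log2 fold change 1.11 ± 0.04). The alpha receptor gene Adra2a, whose product couples to the inhibitory G protein, was lower, at 0.707, 0.953 and 1.64 CPM against 0.181, 0.379 and 0.513 CPM (-1.73 ± 0.28). Downstream, Rapgef3, a cyclic AMP sensor outside protein kinase A, was higher (1.35 ± 0.12) and Adcy7, an adenylyl cyclase, lower (-1.54 ± 0.10). Of the 28 genes of the adrenergic and cyclic AMP machinery tested, 3 were apart in each direction, and the other 22 lay within the fold or overlapped. Among phosphodiesterases and feedback regulators, 1 of 29 was apart and higher, Rgs4, which speeds the turn-off of G proteins (1.36 ± 0.12), and 3 were lower, Pde3b and the MAP kinase phosphatases Dusp8 (-2.03 ± 0.07) and Dusp10 (-1.32 ± 0.04).

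Genes of thermogenesis did not all differ the way Ucp1 did. Ucp1 (chr8:83290352-83298452) was at 13.5, 16.5 and 19.1 CPM in set 1 and 4 and 1.14, 1.89 and 2.80 CPM in set 3 and 6, a log2 fold change of -3.08 ± 0.13. No library of the sets overlapped, and the numbers 2 and 5 lay at 9.94 to 11.55 CPM. Of the 23 thermogenic identity genes tested, 5 were apart and lower and 2 apart and higher (median -0.42). Cox7a1, a respiratory chain subunit of heart and brown fat, was lower (-1.12 ± 0.14), while its fellow subunit Cox8b was higher (1.32 ± 0.15). Cidea, a lipid droplet protein of brown fat, was at 13.3, 15.1 and 16.4 CPM against 14.4, 15.99 and 18.2 CPM and overlapped. Elovl3, a fatty acid elongase, was below the filter on low counts. The secreted factor Fgf21 was barely detected, at 0.657, 0.797 and 1.16 CPM in set 1 and 4 and 0, 0.110 and 0.408 CPM in set 3 and 6, with 0 counts in at least 1 library of set 3 and 6, so no fold is given. Mb, the oxygen-binding myoglobin found in muscle and brown fat (chr15:77015487-77050670), was among the 10 lowest log2 fold changes at a mean log2 CPM of at least 3, at 74.1, 87.1 and 93.5 CPM against 1.35, 2.60 and 3.06 CPM (-5.08 ± 0.09), with the numbers 2 and 5 at 28.9 to 42.6 CPM. Skeletal muscle markers were lower beside it only in part: Acta1, skeletal actin, was lower at 3.59, 3.92 and 4.45 against 0.513, 0.734 and 1.26 CPM and Des, the muscle filament desmin, overlapped, with 2 of 11 markers tested and their sum at 5.17 to 6.11 CPM in set 3 and 6 and 8.44 to 11.1 CPM in set 1 and 4. Their part in the myoglobin difference was not tested.

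**Figure D3:**
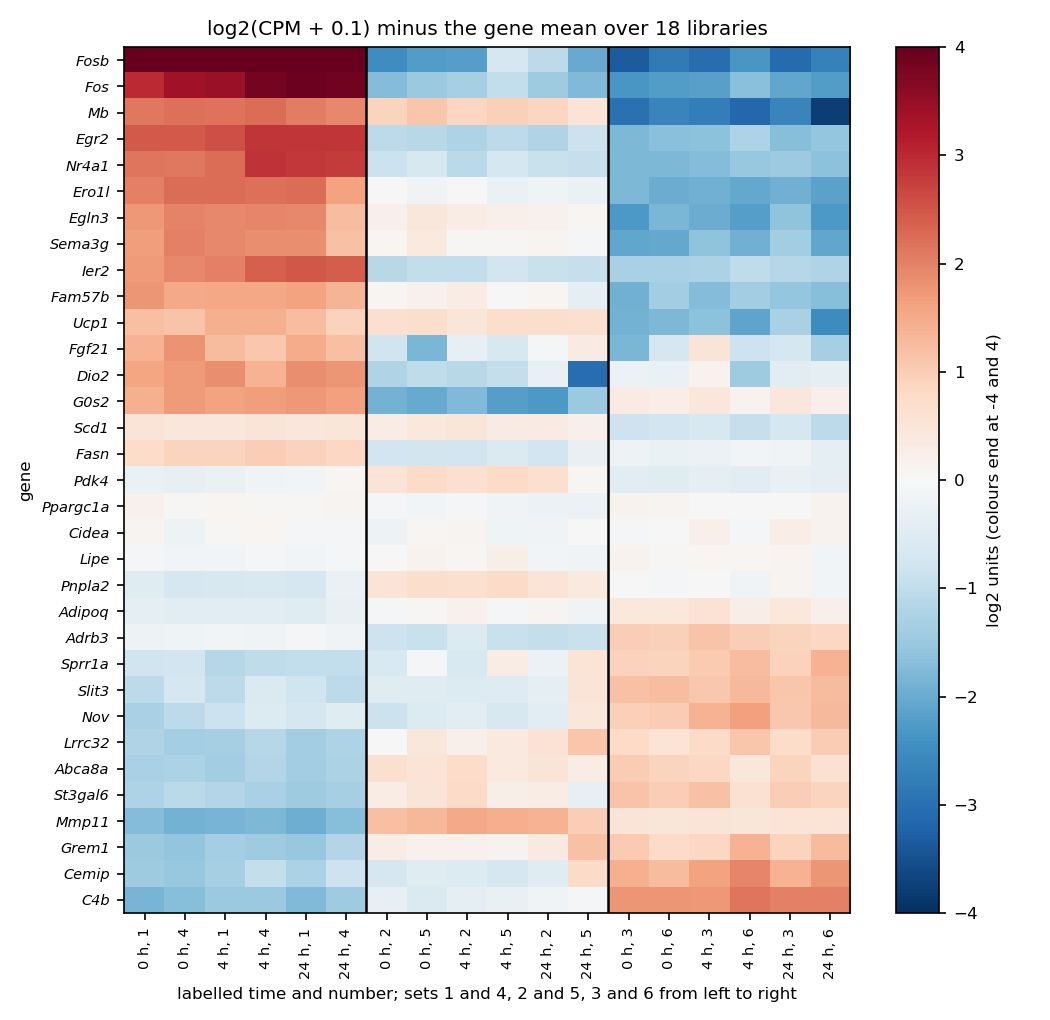
Colour gives log2(CPM + 0.1) minus the gene's mean over the 18 libraries, for 33 named genes ordered by log2 fold change (rows) and the 18 libraries in 3 number sets (columns). Red cells at the top left show the immediate early genes, Mb and Ero1l high in the numbers 1 and 4, and red cells at the bottom right show C4b, Cemip and Grem1 high in the numbers 3 and 6.

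Lipolysis genes were mostly within the fold. Of 21 genes of lipolysis and the lipid droplet, 4 were apart and lower and 1 was apart and higher (median -0.34). G0s2, an inhibitor of the first lipase, adipose triglyceride lipase, was at 294, 348 and 362 CPM in set 1 and 4 and 119.5, 134 and 152 CPM in set 3 and 6 (-1.33 ± 0.06), and the numbers 2 and 5 had 22.2 to 39.1 CPM, below both sets. The lipase itself, Pnpla2, was at 328, 340.2 and 438 CPM against 481, 509 and 560.1 CPM (0.52 ± 0.06) and hormone-sensitive lipase Lipe at 0.15 ± 0.04, neither of them apart. Plin1, which coats the droplet and gates lipolysis, was lower at 361, 410.2 and 418 CPM against 159, 188 and 199 CPM (-1.11 ± 0.05). Cideb (-1.26 ± 0.16) and Pnpla3 (-1.17 ± 0.06) were also lower.

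Fat synthesis was lower in set 3 and 6 for much of its list. Of 20 lipogenesis genes, 9 were apart and lower and none higher (median -0.89), and 18 were lower without overlap at any fold, against 20.1% of all genes tested. With library totals 5 were apart and lower and 1 was apart and higher. The stearoyl-CoA desaturases, which make monounsaturated fatty acids, differed most: Scd2 was at 5515, 6253 and 6357 CPM in set 1 and 4 and 861, 988 and 1087 CPM in set 3 and 6 (-2.64 ± 0.05), and Scd3 at -2.95 ± 0.07. Scd1 was at 13898, 14129 and 14599 CPM against 4971, 5889 and 6516 CPM (-1.29 ± 0.06). These 3 genes are close paralogs, so their counts may share reads. Fasn, which builds palmitate, was at 1174, 1302 and 1389 CPM against 531, 604 and 644 CPM (-1.11 ± 0.05), and the desaturase Fads2 was at -1.67 ± 0.03. In triglyceride synthesis, Dgat2, which adds the last fatty acid, was lower (-1.40 ± 0.07), with 2 of 14 genes apart and lower and Pck1 apart and higher. Fatty acid uptake and activation had 2 of 13 genes apart and lower, the activating enzyme Acsl3 (-1.29 ± 0.04) and the thioesterase Acot2 (-1.37 ± 0.05). Neither list's remaining members were apart.

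Most members of the glycolysis list were lower in set 3 and 6. Of 28 genes of glycolysis and glucose uptake, 17 were apart and lower and none higher (median -1.41, 16 with library totals). Ldha, which turns pyruvate into lactate (chr7:46841475-46855627), was at 690.3, 877 and 898 CPM in set 1 and 4 and 158, 183 and 195 CPM in set 3 and 6 (-2.22 ± 0.06). Pgk1, phosphoglycerate kinase (chrX:106187100-106203699), was at 658, 792 and 835 CPM against 138, 162 and 174 CPM (-2.26 ± 0.06), and Aldoa, aldolase, was at -2.02 ± 0.04. Slc2a4, the insulin-responsive glucose transporter, was at 205, 208 and 216 CPM against 65.1, 76.4 and 86.6 CPM (-1.46 ± 0.05). All 4 genes were lower without overlap, the lowest library of set 1 and 4 lying above the highest of set 3 and 6.

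Targets of hypoxia-inducible factors, the transcription factors that respond to low oxygen, were also lower in large part. Of 19, 11 were apart and lower and none higher (median -1.02). Ero1l, an oxidase that forms disulfide bonds in the endoplasmic reticulum, was at 588, 893 and 907 CPM in set 1 and 4 and 43.6, 49.2 and 54.7 CPM in set 3 and 6 (-4.07 ± 0.11), with the numbers 2 and 5 at 159 to 194 CPM. Egln3, a prolyl hydroxylase that marks the factors for breakdown, was at 30.97, 50.1 and 52.05 CPM against 2.61, 3.02 and 4.22 CPM (-3.83 ± 0.16). Both genes were lower without overlap, and the numbers 2 and 5 lay between the sets for Ero1l. Car9, a carbonic anhydrase, and Ankrd37 were lower from levels of at most 6.60 CPM.

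The core of the hypoxia response element, ACGTG, was looked for on both strands in the same RefSeq promoters. Of the 28 glycolysis and hypoxia genes apart and lower, 27 matched, and 20 of these (74.1%) held the 5 letters. Among all 27025 genes with a promoter 21.8% held them, and among the 10206 genes tested that matched 29.3% did. The letters also stood in 10 of the 20 immediate early genes apart and lower and in 94 of the 282 genes matched among all genes apart and lower. Promoters matched 10206 of the 14537 genes tested, under the 80% needed, so nothing is read from these shares. The hypoxia list was made of targets of hypoxia-inducible factors, so a high share was in part fixed by the choice of genes. The promoters were not matched on base composition, and a match is a run of letters, not a site shown to be bound. The 250 bases before the start are shown for 2 genes with high levels, with the matches of either strand in capitals, for Ldha at chr7:46845554-46845803 (plus strand) and Pgk1 at chrX:106186850-106187099 (plus strand). Ldha holds 5 matches, of which 4 lie in a pair of CACGTG palindromes read on both strands, and Pgk1 holds 2.
Ldha: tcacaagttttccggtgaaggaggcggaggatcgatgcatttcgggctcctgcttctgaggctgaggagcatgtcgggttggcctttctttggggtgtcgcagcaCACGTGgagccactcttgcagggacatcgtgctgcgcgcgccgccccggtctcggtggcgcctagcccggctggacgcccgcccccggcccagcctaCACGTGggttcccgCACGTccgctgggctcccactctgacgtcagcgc
Pgk1: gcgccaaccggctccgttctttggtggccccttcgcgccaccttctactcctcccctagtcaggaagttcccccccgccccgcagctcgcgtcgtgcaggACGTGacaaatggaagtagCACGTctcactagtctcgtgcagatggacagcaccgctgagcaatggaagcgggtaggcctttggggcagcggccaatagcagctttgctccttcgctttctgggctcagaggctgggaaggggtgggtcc

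In mitochondria the differences were small in size but wide in number. Of 41 nuclear genes of respiratory chain subunits, none was apart, and 40 were lower in set 3 and 6 without overlap (median -0.59), against 20.1% of all genes. Cox5b, a cytochrome oxidase subunit, was at 456, 521 and 563 CPM in set 1 and 4 and 203, 270.3 and 317 CPM in set 3 and 6 (-0.95 ± 0.10). Of 23 tricarboxylic acid cycle genes, 1 was apart and lower, Pcx, which makes oxaloacetate (-1.08 ± 0.05, none apart with library totals), and 17 were lower without overlap. The 13 mitochondrially encoded protein genes had a median of -0.14, none apart and 2 lower without overlap, and this median turned to 0.03 with library totals. As a share of all counts these genes took 9.50 ± 0.52% (SD, n = 6) in set 3 and 6 and 8.95 ± 0.35% (SD, n = 6) in set 1 and 4. Fatty acid oxidation genes were closer together (median -0.21), with Hadhb, of the mitochondrial trifunctional protein, apart and lower (-1.14 ± 0.05, not with library totals) and Cpt1a, which admits fatty acids to mitochondria, higher by 0.71 ± 0.05 within the fold.

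**Figure D4:**
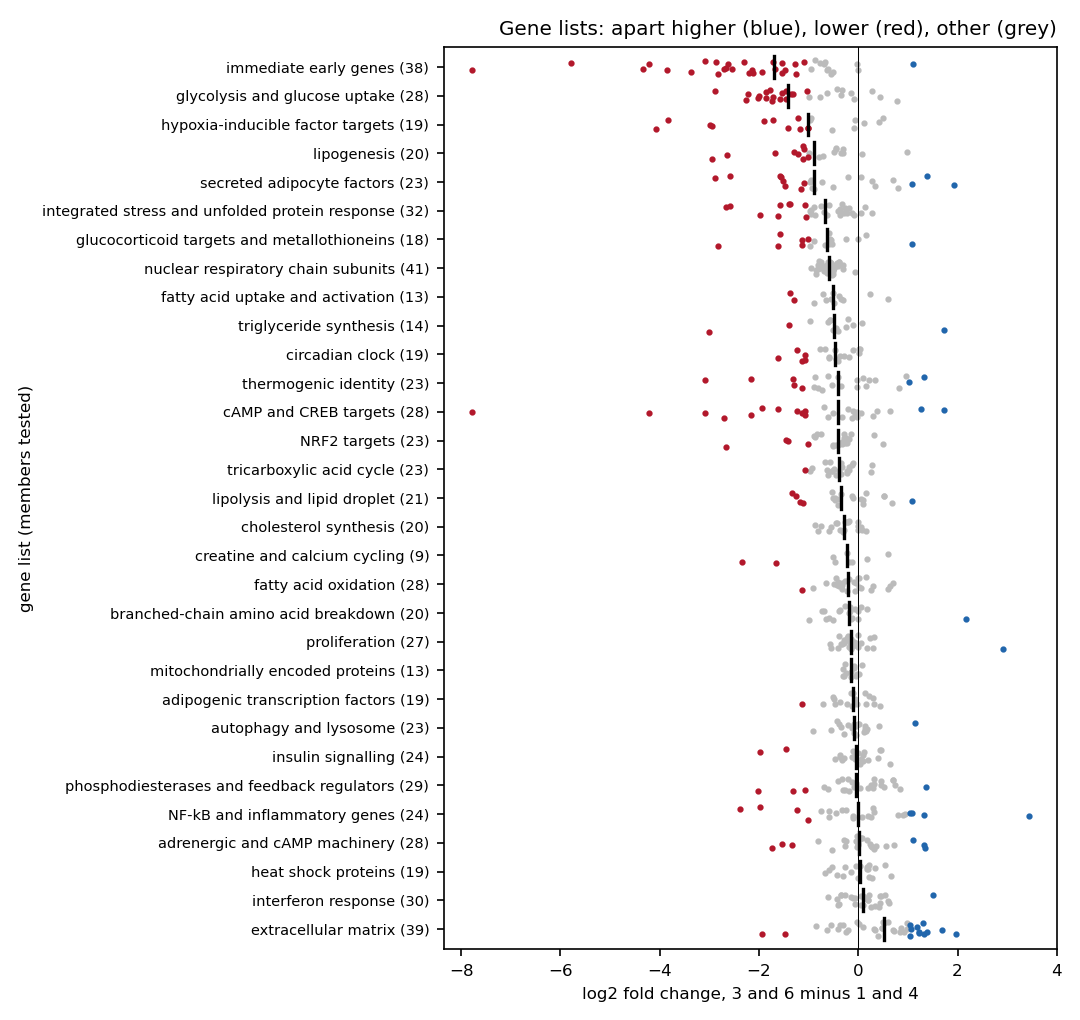
Each point is 1 gene of a list (rows, with the number tested in brackets), placed by its log2 fold change, set 3 and 6 minus set 1 and 4, and the black tick is the list's median. Immediate early genes (median -1.70) and glycolysis (-1.41) sit lowest, and extracellular matrix (0.51) sits highest.

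Extracellular matrix genes were the list with most members higher in set 3 and 6. Of 39, 11 were apart and higher and 2 apart and lower (median 0.51), and 25 were higher without overlap at any fold, against 19.0% of all genes. With library totals 16 were apart and higher. Decorin, Dcn, a small proteoglycan that binds collagen, was at 5.58, 6.33 and 7.11 CPM in set 1 and 4 and 15.1, 15.7 and 17.5 CPM in set 3 and 6 (1.32 ± 0.07), and tenascin C, Tnc, was at 14.5, 15.4 and 17.1 CPM against 44.4, 48.1 and 67.4 CPM (1.69 ± 0.10). The basement membrane collagen Col15a1 was lower instead (-1.94 ± 0.10). Markers of preadipocytes and fibroblasts were higher beside them: 6 of 13 tested were apart and higher, 12 of 13 were higher without overlap, and their summed level was 3643 to 4389 CPM in set 3 and 6 and 2088 to 2343 CPM in set 1 and 4, with the smooth muscle genes Acta2 (1.40 ± 0.05) and Tagln (1.90 ± 0.12) among them. Some of these markers are matrix genes themselves, and their part in the matrix difference was not tested.

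Among genes with a mean log2 CPM of at least 3, those with the largest positive log2 fold changes included several secreted proteins. Complement component C4b was at 9.96, 12.003 and 13.6 CPM in set 1 and 4 and 122, 136 and 160.2 CPM in set 3 and 6 (3.54 ± 0.07), with the numbers 2 and 5 at 24.5 to 35.2 CPM. Cemip, which breaks down hyaluronan, was at 4.48, 5.22 and 7.23 CPM against 31.2, 37.3 and 50.2 CPM (2.82 ± 0.10), and the bone morphogenetic protein antagonist Grem1 at 2.47 ± 0.13. The metalloproteinase Mmp11 was at 33.5, 36.7 and 39.6 CPM against 182, 187 and 191 CPM (2.35 ± 0.04), and the numbers 2 and 5 had 257 to 376 CPM, above both. Nov, a matricellular protein, was at 2.08 ± 0.08, and the guidance factors Slit2 and Slit3 were at 1.92 ± 0.10 and 2.04 ± 0.08. The cytokine receptor gene Il1rl1, which binds interleukin-33, was at 0.380, 0.692 and 1.03 CPM against 4.94, 7.09 and 11.48 CPM, and its ligand Il33 was apart and higher as well (1.32 ± 0.27). Ccnd1, a cyclin that drives cells into S phase, was at 1.34, 2.05 and 2.98 CPM against 13.3, 15.97 and 18.8 CPM. The other 26 proliferation genes tested were not apart. Of all 27, 13 were lower and 5 higher in set 3 and 6 without overlap, beside 20.1% and 19.0% of all genes tested. Their median was -0.15, and 0.01 with library totals.

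Among inflammatory genes 4 of 24 were apart in each direction (median -0.01, and 0.15 with library totals). Cxcl1, a neutrophil chemokine, was at 58.03, 71.2 and 83.8 CPM in set 1 and 4 and 12.8, 13.4 and 16.1 CPM in set 3 and 6 (-2.38 ± 0.10), and the NF-kB cofactor Nfkbiz was lower too (-1.98 ± 0.11). Macrophage and leukocyte markers were at or near 0, with 11 of 13 below the filter and the other 2 summing to 3.44 to 3.82 CPM in set 1 and 4 and 3.68 to 5.54 CPM in set 3 and 6. Of these 2, Cd68 was at 2.88, 3.06 and 3.20 CPM against 2.53, 2.99 and 3.79 CPM and overlapped, and Cd14, a receptor for bacterial lipopolysaccharide, was apart and higher, at 0.477, 0.576 and 0.834 CPM against 0.839, 1.30 and 1.74 CPM (1.02 ± 0.22), though no longer apart without 4 h replicate 6. The integrated stress and unfolded protein response had 9 of 32 genes apart and lower and none higher (median -0.66), with the cystine transporter Slc7a11 at 59.3, 69.2 and 72.7 CPM against 10.2, 10.7 and 12.6 CPM (-2.65 ± 0.06) and the pseudokinase Trib3 at -1.99 ± 0.07. Of 18 glucocorticoid targets, 6 were apart and lower, Sgk1, a kinase that regulates ion transport, among them (-1.58 ± 0.06), and 1 apart and higher (median -0.63). With library totals 3 were apart and lower. Of 19 clock genes, 5 were apart and lower (2 with library totals), including Bhlhe40 (-1.62 ± 0.07) and Ciart (-1.24 ± 0.09), both transcriptional repressors. Of 19 heat shock genes none was apart (median 0.03), and of 30 interferon response genes 1 was apart, Oas1a, an antiviral enzyme, which was higher (1.503 ± 0.20).

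Other lists differed in how many of their members were apart, beside 3.06% higher and 2.97% lower over all genes tested. Of 23 secreted adipocyte factors, 8 were apart and lower, led by Rbp4, the carrier of retinol (-2.90 ± 0.11), and 3 were apart and higher. Of 23 NRF2 targets, 4 were apart and lower, among them heme oxygenase, Hmox1, at 40.9, 58.5 and 63.4 CPM against 18.9, 19.7 and 21.4 CPM (-1.46 ± 0.11). Of 9 genes of creatine and calcium cycling, 2 were apart and lower, the calcium pump Atp2a3 (-2.35 ± 0.05) and the phosphatase Alpl (-1.65 ± 0.06). Of 24 insulin signalling genes 2 were apart and lower, Slc2a4 and Trib3, and of 19 adipogenic transcription factors 1 was, Klf9 (-1.12 ± 0.04, and none with library totals). Single genes were apart and higher among 20 of branched-chain amino acid breakdown, the transaminase Bcat1 (2.17 ± 0.14), and among 23 of autophagy and the lysosome, Gpnmb, a membrane glycoprotein (1.13 ± 0.08). Such single genes are near the share over all genes and say nothing about their lists. Without overlap at any fold, 11 of the 20 branched-chain amino acid genes were lower and 1 higher (median -0.18, and -0.02 with library totals). For autophagy and the lysosome 8 of 23 were lower and 2 higher. Over all genes tested 20.1% were lower and 19.0% higher without overlap. None of 20 cholesterol synthesis genes was apart (median -0.28, and -0.11 with library totals), though 11 were lower and 0 higher without overlap. Of 10 general adipocyte markers Plin1 alone was apart, and none with library totals.

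The sets can be compared in 2 parts that share no library, number 3 against 1 and number 6 against 4. Across 14431 genes fitted in both, the 2 log2 fold changes correlated with r = 0.86, and genes are not independent replicates. The numbers 3 and 6, and 1 and 4, were put together because their libraries correlated across these genes, so this value restates the choice and is no support for it. All 877 genes apart had the same sign in both, which the choice of genes apart fixes in part. For Fos the values were -5.74 and -5.79, for Ucp1 -2.92 and -3.30, for Adrb3 1.14 and 1.09 and for C4b 3.56 and 3.53, in the order 3 against 1 and then 6 against 4. The same holds for the set difference at each labelled time, since the choice used libraries of different times: the log2 fold change of Fos was -5.49, -5.67 and -6.08 at 0 h, 4 h and 24 h and that of Ucp1 -3.07, -3.27 and -2.93.

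**Figure D5:**
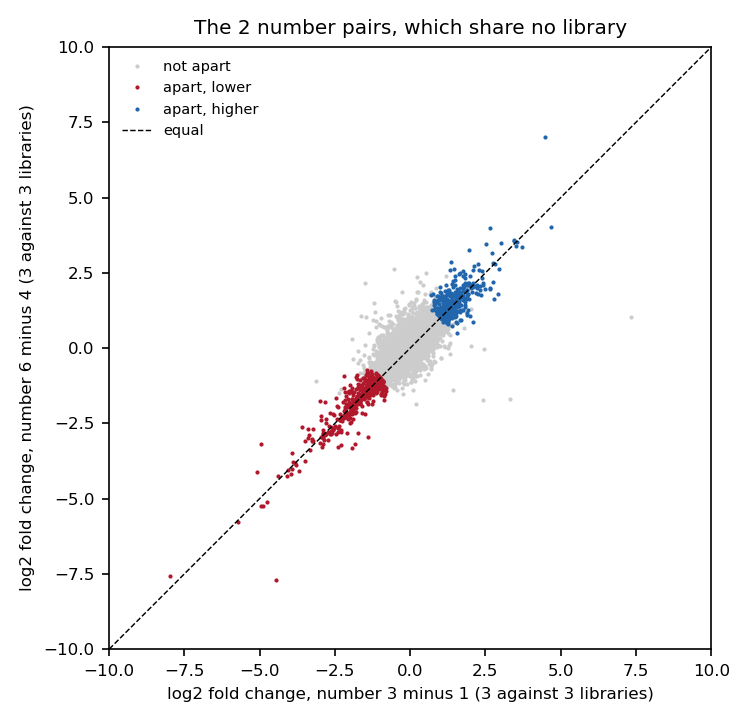
Each point is 1 gene, the x axis its log2 fold change of number 3 minus 1, the y axis that of number 6 minus 4 (3 libraries against 3 each), with the dashed line at equal values. The 877 genes apart (red 432 lower, blue 445 higher) lie near the line, and r is 0.86 over all 14431 genes.

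The means of the labelled times were subtracted before the sets were chosen, so differences between times did not enter that choice. The spread about those means did enter it, so the p-values of time, with the set as a covariate, are not wholly free of the choice. Labelled time was tested within the 12 libraries with the set as a covariate. Between 4 h and 0 h no gene passed an adjusted p of 0.05 with edgeR's quasi-likelihood test and Benjamini-Hochberg adjustment over 14537 genes: 1331 (9.16%) had an unadjusted p under 0.05, the smallest adjusted p was 0.275, and DESeq2 called 1 gene. Between 24 h and 0 h edgeR likewise called 0 genes, with 723 (4.97%) under an unadjusted p of 0.05 and a smallest adjusted p of 0.155. DESeq2 called 8 genes there, with adjustment over 11718 genes. For Fos, the log2 fold change of 4 h against 0 h was 0.45 ± 0.15 (SE, adjusted p = 0.481) and that of 24 h against 0 h was 0.61 ± 0.15 (SE, adjusted p = 0.72) in edgeR. For Ucp1 the values were 0.21 ± 0.14 (SE, adjusted p = 0.693) and -0.04 ± 0.15 (SE, adjusted p = 1). The genes nearest to the threshold at 24 h were Zfp36 at 0.38 ± 0.06 (SE, adjusted p = 0.155) and Egr1 at 0.31 ± 0.06 (SE, adjusted p = 0.155) in edgeR. At 4 h Nov was among the genes with the lowest adjusted p, at 0.51 ± 0.10 (SE, adjusted p = 0.275) in edgeR. With the number in place of the set as a block, edgeR called 1 gene (0.00688%) at 4 h and 6 (0.0413%) at 24 h. Each labelled time has 4 of the 12 libraries, and a p over the threshold does not show that the times are alike.

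The other contrasts of the design, the interaction of set and time and the numbers within a set, use the same values as the choice of sets, which required libraries of different times and of numbers 3 apart to deviate alike. Their counts are therefore given as a description, from which nothing is read. The interaction gave 0 genes in edgeR, with 580 under an unadjusted p of 0.05, and 2 in DESeq2. Number 6 against 3 gave 0 genes in edgeR, with 1812 under an unadjusted p of 0.05, and 30 in DESeq2 with adjustment over 1573 genes. However, edgeR called 541 without 0 h replicate 6 and 178 without 0 h replicate 3. Number 4 against 1 gave 0 genes in edgeR, with 447 under an unadjusted p of 0.05, and 0 in DESeq2. The difference between the 2 parts, 6 minus 4 against 3 minus 1, gave 0 genes in edgeR, with 1551 under an unadjusted p of 0.05. In DESeq2 it gave 25, with adjustment over 727 genes. However, edgeR called 265 without 0 h replicate 6 and 54 without 0 h replicate 3.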

How the data were processed

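RNA was sequenced from 18 libraries of BMC cells, of which the 12 with the numbers 1, 3, 4 and 6 were compared and the 6 with 2 and 5 were given only as levels. The values are estimated counts per gene from salmon, as deposited by the authors, per the labels. The submitters' processing notes name mm10, edgeR and limma, while the salmon version, its annotation and whether counting used strand are not given in sources used here. Counts were rounded to whole numbers, and 27.4% of values above 0 were not whole before. Genes with at least 10 counts in enough libraries (filterByExpr, total at least 15) were kept, 14537 of 45706, and scaled by TMM in edgeR 4.0.16 (R 4.3.3, limma 3.58.1). The 12 totals ran from 8924701 to 26501223 estimated counts, and standard errors cover these libraries only. Set differences come from edgeR's quasi-likelihood fit of set and labelled time. Labelled time, its interaction with set, and the numbers within a set were tested in it, with Benjamini-Hochberg adjustment over all genes and a threshold of 0.05. DESeq2 1.42.0 was an alternative, and in some tests it gave an adjusted p to fewer genes. These were 11718 genes for 24 h against 0 h, 1573 for number 6 against 3 and 727 for 6 minus 4 against 3 minus 1. Its counts there are not like for like with those of edgeR. Of these steps, edgeR's tests of labelled time and its set log2 fold changes were tried on simulated data, and the others were not. After set and time were fitted, libraries with the same number had residuals correlated with r of -0.16 to 0.14 (median -0.05, 1 of 12 pairs above 0.1). Libraries of the other number of the set gave r of -0.33 to 0.01 (median -0.18), and libraries of the other set a median of 0.12 (15 of 24 pairs above 0.1). The fit of set and time itself shifts such correlations, so these values cannot decide whether the numbers pair the libraries. The main tests did not pair them, and the replicate block was an alternative. Named genes were 16 anchor genes, the 10 largest differences each way with a mean log2 CPM of at least 3, up to 4 members of each of 31 gene lists and 8 marker lists, and the 5 lowest adjusted p of each test. The sets, the gene lists and these rules were chosen with earlier results of these data known. Gene coordinates are from GENCODE M21 (mm10). Alternatives left out each library, changed the scaling, the filter, the fold and the libraries fitted, and added a replicate block. Figures were drawn with matplotlib.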

Additional observations from a re-analysis of the deposited data

Results flagged for a closer look

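Within each set of 6 libraries, the highest and lowest library of each of 76 groups of values (levels of the anchor genes and of the genes with the largest differences, and library measures) was compared with the rest, and about 1 in 20 such groups would stand out by chance alone. The library 4 h replicate 6 of set 3 and 6 lay far from the other 5 in its total count (8924701 estimated counts, next 20539593), its number of detected genes (18151, next 19675), its share of mitochondrially encoded proteins (8.48%, next 9.44%) and its Fos level (4.92 CPM, next 3.63). The other 2 were G0s2 in set 1 and 4, where 0 h replicate 1 was lowest (294 CPM, next 338), and Fgf21 in set 3 and 6, where 4 h replicate 3 was highest (0.408 CPM, next 0.126). None of these 3 levels reached the values of the other set.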

How the results depend on the processing

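The main rule gave 877 genes apart, a log2 fold change of at least 0.5 gave 2525 and one of at least 2 gave 166. The other settings gave 877 to 1213, and leaving out 1 library gave 895 to 939. No named gene that was apart changed the sign of its log2 fold change, and changes of sign in other named genes were not counted. One of these, Cd68, was at -0.02 as reported and at 0.08 with number 6 against 4 alone. Of all values of the named genes under the alternatives, 279 moved by more than the spread. These were 105 of 181 genes with library totals, 48, 24 and 50 at 0 h, 4 h and 24 h alone, 22 and 28 with number 3 against 1 and 6 against 4 alone, and 2 with a library left out. Without a filter on low counts, edgeR called 277 genes between 4 h and 0 h, 168 between 24 h and 0 h, 162 for the interaction, 466 for number 6 against 3, 138 for number 4 against 1 and 350 for their difference, of which 262, 154, 141, 450, 125 and 333 also passed the filter, and the cause was not tested. DESeq2 called 1, 8, 2, 30, 0 and 25, where the 8, 30 and 25 came from adjustment over 11718, 1573 and 727 genes. Leaving out 1 library gave 0 to 1, 0 to 4, 0 to 5, 0 to 541, 0 to 3 and 0 to 265. With the number as a replicate block, 1 gene was called at 4 h (Nov, log2 fold change 0.51, adjusted p = 0.025 in edgeR) and 6 at 24 h (Zfp36, Igtp, Egr1, Fosb, Ifi204 and Gm4951, all higher). Over all 18 libraries the replicate block called 0 and 1 (Il1rl1). Without 4 h replicate 6, chosen after seeing the data, no gene list gained or lost more than 1 gene apart in either direction. Each set has 2 libraries per labelled time, which limits the tests of time and number.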
